A study of Homo sapiens with 6 samples.

Results

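The genes described here encode the transcriptional output stage of the Hippo pathway. They are the coactivators YAP1 and WWTR1 (the gene of TAZ), the DNA-binding factors TEAD1, TEAD2, TEAD3 and TEAD4, and the cofactors VGLL2, VGLL3 and VGLL4. They were chosen by gene symbol, with no measured value used in the rule, and are 9 of the 58735 rows of the count table. The choice was made with earlier results of these data known. All 9 were among the 15935 genes that passed the expression filter and were tested. RNA-seq was performed on RD cells, an established human embryonal rhabdomyosarcoma (ERMS) line. The control group was RD cells transduced with lentivirus carrying a scrambled shRNA (n = 3), and the knockdown group was RD cells transduced with lentivirus carrying a TAK1 shRNA (n = 3). TAK1, encoded by MAP3K7, is a kinase downstream of cytokine and TGF-beta family receptors. The study asked whether TAK1 acts on rhabdomyosarcoma differentiation through YAP1, and the comparison here addresses the mRNA side of that question only. A single TAK1 shRNA was sequenced, so effects of the knockdown and of that construct cannot be told apart. The time between transduction and RNA collection is not given in the sources used here. The labels do not say whether the replicates were separate cultures, so p-values measure the spread between these libraries.

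In the Hippo pathway, a chain of kinases and scaffolds phosphorylates YAP1 and TAZ, which are then held in the cytoplasm by 14-3-3 proteins or degraded. Unphosphorylated YAP1 and TAZ enter the nucleus and, having no DNA-binding domain, act through TEAD factors on growth and matrix genes. VGLL proteins bind the same TEAD surface region and can occupy TEAD in place of YAP1 or TAZ. In skeletal muscle, TEAD factors bind M-CAT elements in muscle gene promoters, and VGLL2 is the muscle-enriched VGLL gene.

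Library totals ran from 28839898 to 34469323 counts, and the lowest count of any of the 9 genes in a library was 1231. MAP3K7, the targeted gene, was checked first. Its level was 77.3 ± 0.743 CPM (counts relative to the library total, scaled by the trimmed mean of M-values) in scrambled shRNA libraries (mean ± SD, n = 3) and 31.3 ± 2.00 in TAK1 shRNA libraries. The log2 fold change was -1.30 ± 0.0615 (SE), and the groups did not overlap. The muscle identity of the line was checked with 7 muscle lineage markers, of which 5 were tested and MYF5 and MYF6 were at or near 0. Their summed level was 1878 to 1909 CPM in scrambled and 1791 to 1901 CPM in TAK1 shRNA libraries. The 3 blood and 3 endothelial markers summed to at most 0.162 CPM in any library, with CD3E and CDH5 at 0. Of the 4 epithelial markers only KRT18 was tested, and EPCAM, CDH1 and KRT5 together had 47 counts over the 6 libraries. The 4 summed to 52.52 to 59.81 CPM in scrambled and 25.54 to 28.05 CPM in TAK1 shRNA libraries. Nearly all of this was KRT18, with means of 56.1 and 26.4 CPM.

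A gene was called lower or higher where edgeR's quasi-likelihood test gave a Benjamini-Hochberg adjusted p under 0.05 over all tested genes and the log2 fold change was at least 0.25 in size. By this rule both coactivators fell, VGLL2 and VGLL3 rose, and none of the TEAD genes was called. The 2 lower genes of 9 stand beside 11.3% of all tested genes called lower, and the 2 higher genes beside 11.8% called higher. By adjusted p alone, 3 of the 9 were lower (17.2% of all tested genes) and 3 were higher (16.1%). The 3 scrambled and 3 TAK1 shRNA values did not overlap for 7 of the 9 genes, against 43.9% of all tested genes. Even the lowest of the 9 in scrambled CPM, VGLL4, was above 67.2% of tested genes. The share without overlap among genes of like level was not computed. The median log2 fold change of the 9 genes was 0.09, beside 0.02 over all tested genes, with 6 above 0 and 3 below. In bulk RNA, fewer cells of a type and less RNA per cell cannot be told apart.

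**Figure D1:**
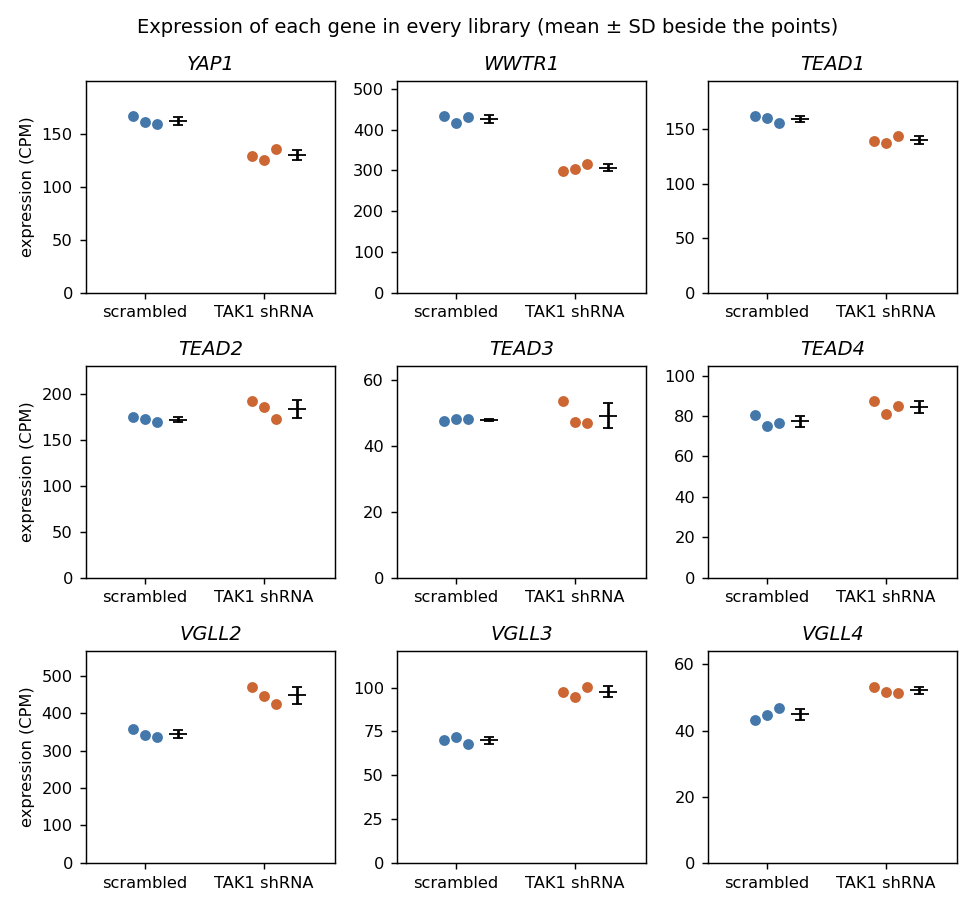
Expression in CPM of each of the 9 genes in the 3 scrambled (blue) and 3 TAK1 shRNA (orange) libraries, with the mean ± SD beside the points and each axis starting at 0. YAP1, WWTR1 and TEAD1 sit lower in every TAK1 shRNA library, VGLL2, VGLL3, VGLL4 and TEAD4 sit higher, and the values of TEAD2 and TEAD3 overlap.

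YAP1, the coactivator after which the pathway's output is usually named, was lower after TAK1 knockdown. Its level was 167, 161 and 159 CPM in the scrambled libraries and 130, 126 and 135 CPM in the TAK1 shRNA libraries. Every TAK1 shRNA library was below every scrambled one. The mean fell from 162 ± 3.91 to 130 ± 5.01 CPM (SD, n = 3) and thus fell by 19.8%. Its log2 fold change was -0.32 ± 0.0481 (SE), with an adjusted p of 1.11e-05. Leaving out each library in turn gave log2 fold changes from -0.36 to -0.29, all of them still called. YAP1 (ENSG00000137693.14) lies on the plus strand of chr11:102110447-102233424 in GRCh38. It shares 628 exon bases with a long non-coding gene on the opposite strand, which was not analysed here. The 300 bases around its start, 250 before and 50 after, are shown because this was the only window among the 9 genes that held the core of an M-CAT element, the DNA sequence TEAD factors bind. The letters searched were CATTCC on either strand (GGAATG on the other), and the single match, in capitals, lies at position -162 relative to the start. The sequence is from RefSeq (GRCh38.p14, chr11:102110197-102110496, plus strand).
YAP1: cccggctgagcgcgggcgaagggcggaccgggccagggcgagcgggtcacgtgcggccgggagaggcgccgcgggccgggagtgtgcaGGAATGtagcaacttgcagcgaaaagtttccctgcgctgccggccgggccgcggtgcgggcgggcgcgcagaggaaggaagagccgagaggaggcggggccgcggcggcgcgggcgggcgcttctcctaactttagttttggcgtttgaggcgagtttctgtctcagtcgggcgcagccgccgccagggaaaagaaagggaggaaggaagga
The same letters were present in 11.6% of the 15767 windows of tested genes. By gene, 1 of the 7 with a window held them (14.3%), beside 15.2% of tested genes with a window. A match describes the letters in the window and is not a measured binding site. RefSeq windows were matched for 7 of the 9 genes, 13 windows in all, and not for TEAD1 or TEAD4.

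WWTR1, which encodes TAZ, also fell. Its level was 433, 416 and 431 CPM in scrambled and 299, 304 and 316 CPM in TAK1 shRNA libraries. The highest knockdown library was thus below the lowest control library by more than the range of either group. The mean went from 427 ± 9.22 to 306 ± 8.67 CPM and thus fell by 28.2%. This was a log2 fold change of -0.48 ± 0.0432 (adjusted p = 3.76e-09), which ran from -0.51 to -0.46 when each library was left out. The size of the change was larger than that of 83.2% of all tested genes, where the change of YAP1 was larger than that of 70.0%. WWTR1 (ENSG00000018408.15) lies on the minus strand of chr3:149517235-149736714. It shares 756 exon bases with the antisense gene WWTR1-AS1, which had 90 counts over the 6 libraries against 68615 for WWTR1.

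The balance between the coactivators was compared by their log2 ratio of length-scaled levels. The log2 ratio of YAP1 to WWTR1 was -0.97, -0.96 and -1.03 in scrambled libraries and -0.80, -0.87 and -0.82 in TAK1 shRNA libraries. The groups did not overlap, with means of -0.99 ± 0.04 and -0.83 ± 0.04 (SD, n = 3). The difference was 0.16. An exact two-sided permutation test gave p = 0.1, which is the lowest value 3 libraries against 3 can reach. YAP1 accounted for 33.5 ± 0.588% of the summed level of both genes in scrambled and 36.0 ± 0.595% in TAK1 shRNA libraries. The share depended on the gene length used: with the longest annotated transcript it was 26.2 ± 0.51% and 28.4 ± 0.524%.

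TEAD1, a broadly expressed TEAD factor, was the only TEAD gene that was lower with an adjusted p under 0.05. Its level was 162, 160 and 156 CPM in scrambled and 139, 138 and 144 CPM in TAK1 shRNA libraries. The groups did not overlap, and the mean fell by 12.0%. The log2 fold change of -0.18 ± 0.0466 (adjusted p = 0.00324) stayed under the fold threshold, also under every one of the 14 other settings tried. TEAD1 (ENSG00000187079.20) lies on chr11:12674421-12944737, plus strand.

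TEAD4, a TEAD factor linked to muscle differentiation and bound by myogenic factors at its own gene, pointed the other way. Its level was 80.4, 75.1 and 76.5 CPM in scrambled and 87.2, 81.2 and 85.2 CPM in TAK1 shRNA libraries. The groups were separate by less than 1 CPM. This gave a log2 fold change of 0.13 ± 0.0533, with an adjusted p of 0.0677. With the replicate number as a block, the adjusted p was 0.0267 at a log2 fold change of 0.13, and without TAK1 shRNA replicate 2 it was 0.0439. Over all 14 settings the adjusted p ran from 0.0104 to 0.268, and the change never reached the fold threshold. TEAD4 (ENSG00000197905.10) lies on chr12:2959330-3040676, plus strand.

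TEAD2 and TEAD3, known for roles in the embryo and the placenta, overlapped between the groups. TEAD2 was at 174, 172 and 169 CPM in scrambled and 192, 186 and 173 CPM in TAK1 shRNA libraries (log2 fold change 0.09 ± 0.0483, adjusted p = 0.152). One knockdown library of TEAD2 lay within the control range. With library size alone as the scale, TEAD2 had a log2 fold change of 0.14 and an adjusted p of 0.0251, and without TAK1 shRNA replicate 1 its log2 fold change was 0.06. TEAD3 was at 47.5, 48.1 and 48.1 CPM in scrambled and 53.4, 47.1 and 46.9 CPM in TAK1 shRNA libraries (log2 fold change 0.04 ± 0.0636, adjusted p = 0.722). TAK1 shRNA replicate 1 alone lay above the controls, and without it the log2 fold change of TEAD3 was -0.03. TEAD2 (ENSG00000074219.14) lies on chr19:49340595-49362457 and TEAD3 (ENSG00000007866.22) on chr6:35473597-35497079, both on the minus strand. TEAD2 shares 319 exon bases with CD37 on the opposite strand, which had 4900 counts over the 6 libraries against 33468 for TEAD2. Whether the authors' counting used strand is not given in the sources used here.

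The opposite directions of TEAD1 and TEAD4 were compared within each library. The log2 ratio of TEAD1 to TEAD4, per length, was -1.22, -1.14 and -1.20 in scrambled and -1.56, -1.47 and -1.47 in TAK1 shRNA libraries. Every TAK1 shRNA library was below every scrambled one. The mean difference was -0.31. The same exact permutation test gave p = 0.1, its lowest value, but that outcome was fixed by the choice of the pair. Neither gene's groups overlapped and their directions were opposite, so the ratio had to separate. The pair was set side by side because of their directions, so the ratio is a description of those values, and TEAD4 itself was not called.

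**Figure D2:**
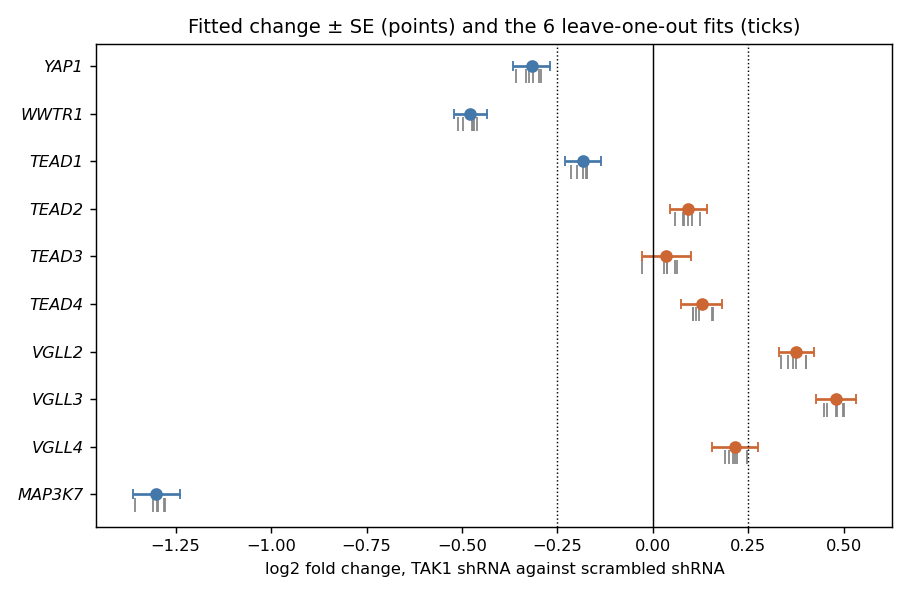
Fitted log2 fold change (TAK1 shRNA against scrambled shRNA, 3 libraries each) with its SE for the 9 genes and for the targeted gene MAP3K7. Grey ticks are the 6 fits that leave out a library and dotted lines mark the fold threshold of 0.25. MAP3K7 lies at -1.30, the 4 called genes lie between 0.32 and 0.48 in size, and the ticks of TEAD3 fall on both sides of 0.

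VGLL2, the muscle-enriched cofactor of TEAD factors, rose. Its level was 357, 342 and 336 CPM in scrambled and 471, 446 and 425 CPM in TAK1 shRNA libraries. No values overlapped, and the mean rose by 29.7%, from 345 ± 10.9 to 447 ± 23.3 CPM. The log2 fold change was 0.38 ± 0.0461 (adjusted p = 5.6e-07), between 0.34 and 0.40 when each library was left out. VGLL2 (ENSG00000170162.14) lies on the plus strand of chr6:117265558-117273565.

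VGLL3, a cofactor expressed in mesenchymal cells and myoblasts, rose by about as much on the log2 scale as WWTR1 fell. Its level was 70.3, 71.9 and 67.8 CPM in scrambled and 97.7, 94.5 and 101 CPM in TAK1 shRNA libraries. The gap between the groups was several times the spread within either. The mean rose by 39.5%, and the log2 fold change was 0.48 ± 0.0523 (adjusted p = 8.57e-08), between 0.45 and 0.50 when each library was left out. VGLL3 (ENSG00000206538.9) lies on the minus strand of chr3:86876388-86991149. The start windows of the 2 genes that rose are given here for comparison with that of YAP1. Neither held the M-CAT core, the AP-1 letters TGANTCA or the E-box CAGCTG, which myogenic factors can bind. The windows of WWTR1, which fell, held no M-CAT core either. The sequences are from RefSeq (GRCh38.p14), at chr6:117265308-117265607 (plus strand) for VGLL2 and chr3:86991100-86991399 (minus strand) for VGLL3.
VGLL2: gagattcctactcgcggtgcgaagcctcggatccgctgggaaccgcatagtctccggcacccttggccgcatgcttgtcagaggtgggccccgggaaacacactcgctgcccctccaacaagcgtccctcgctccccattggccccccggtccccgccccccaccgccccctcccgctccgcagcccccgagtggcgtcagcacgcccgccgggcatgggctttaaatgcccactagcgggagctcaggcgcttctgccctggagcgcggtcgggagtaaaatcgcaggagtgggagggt
VGLL3: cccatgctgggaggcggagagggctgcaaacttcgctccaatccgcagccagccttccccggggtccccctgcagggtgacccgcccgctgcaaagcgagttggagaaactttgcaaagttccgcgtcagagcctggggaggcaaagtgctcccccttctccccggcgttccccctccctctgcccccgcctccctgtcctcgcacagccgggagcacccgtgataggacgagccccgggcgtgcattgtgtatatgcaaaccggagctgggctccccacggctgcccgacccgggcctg
The absence of these letters from the window says nothing about binding elsewhere. GC content was 70.7% in the YAP1 window, 69% in that of VGLL2 and 68% in that of VGLL3, beside a median of 64.7% over windows of tested genes. The AP-1 letters occurred in 5.17% and the E-box in 17.8% of windows of tested genes.

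VGLL4, which competes with YAP1 for TEAD factors and acts as a repressor, was higher by adjusted p but under the fold threshold. Its level was 43.3, 44.6 and 46.8 CPM in scrambled and 53.3, 51.8 and 51.4 CPM in TAK1 shRNA libraries. The groups did not overlap, and the mean rose by 16.2%. The log2 fold change was 0.22 ± 0.0601 (adjusted p = 0.00689). With library size alone as the scale it was 0.26 and passed both thresholds. VGLL4 (ENSG00000144560.16) lies on the minus strand of chr3:11556069-11771350. Of its exon bases, 22.2% overlap ATG7, an autophagy gene on the opposite strand with 4787 counts against 9161 for VGLL4. ATG7 itself had a log2 fold change of 0.22 (adjusted p = 0.028), and its part in the VGLL4 value was not tested.

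Among muscle regulators, MYOD1, a master regulator of the myogenic lineage, rose from 263 ± 8.03 to 339 ± 16.7 CPM (log2 fold change 0.37, adjusted p = 8.16e-07). MYOG, which drives terminal differentiation, rose from 141 to 170 CPM (log2 fold change 0.27, adjusted p = 0.000153), but was at 0.24 and thus under the fold threshold without scrambled replicate 1 or TAK1 shRNA replicate 1. CHRNA1, the acetylcholine receptor alpha subunit, fell from 921 to 700 CPM (log2 fold change -0.40, adjusted p = 1.91e-08), while DES, the muscle intermediate filament gene, was at 340 and 362 CPM (adjusted p = 0.119). CDH15 was at 232 and 273 CPM (log2 fold change 0.23, adjusted p = 0.00116), under the fold threshold. Of the 5 muscle lineage markers tested, 2 were thus higher and 1 lower, beside 11.8% and 11.3% of all tested genes. The part of muscle differentiation in the VGLL2 and VGLL3 values was not tested.

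Levels of different genes can be compared only per length. Counts were therefore divided by the length of the union of annotated exons and expressed as TPM, a unit relative to both gene length and library total. In scrambled libraries VGLL2 had the highest level of the 9, at 675 ± 19.7 TPM (SD, n = 3), and VGLL3 the lowest, at 24.0 ± 0.728 TPM. VGLL2 was thus 28.2-fold above VGLL3. Between them came TEAD2 at 252 ± 3.5 TPM, WWTR1 at 223 ± 4.22 TPM and TEAD4 at 148 ± 4.75 TPM. YAP1 followed at 112 ± 2.43 TPM, TEAD3 at 68.5 ± 0.669 TPM, TEAD1 at 65.1 ± 1.14 TPM and VGLL4 at 27.2 ± 1.12 TPM. No neighbours in this order overlapped in their scrambled values. The order depended on the length used: with the longest annotated transcript, WWTR1 (262 TPM) came above TEAD2 (218 TPM), and TEAD1 (52.4 TPM) above TEAD3 (49.6 TPM).

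**Figure D3:**
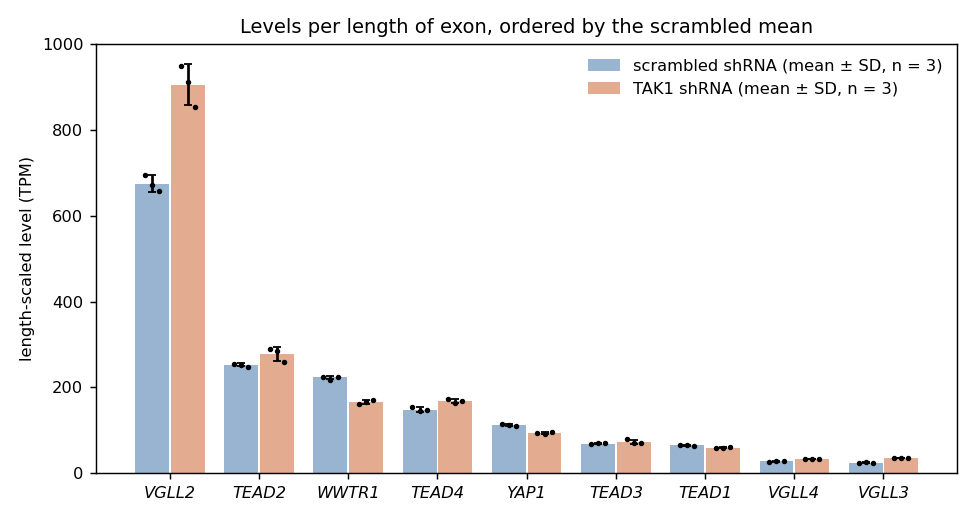
Length-scaled level (TPM, counts per union exon length) of the 9 genes, as bars of the mean ± SD with each library as a dot, for scrambled (blue) and TAK1 shRNA (orange) libraries. VGLL2 stands at 675 and 906 TPM in the 2 groups, above every other gene shown.

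On this scale WWTR1 was 1.99-fold above YAP1 in scrambled libraries, or 2.82-fold with the longest transcript. YAP1 and WWTR1 together were at 335 ± 5.2 TPM in scrambled and 259 ± 6.8 TPM in TAK1 shRNA libraries, so the sum fell by 22.8%. TPM values were not scaled by the trimmed mean, so changes between groups in TPM differ from those in CPM above. In TPM, YAP1 went from 112 to 93.1 and WWTR1 from 223 to 166. TEAD2 made up 47.2 ± 0.327% of the summed TEAD level in scrambled and 48.1 ± 1.38% in TAK1 shRNA libraries. The share of TEAD1 was 12.2 ± 0.114% and 10.3 ± 0.56%, with no overlap between the groups, and that of TEAD4 was 27.8 ± 0.601% and 29.1 ± 0.982%, with overlap. VGLL2 was 92.9 ± 0.297% of the summed VGLL2, VGLL3 and VGLL4 level in scrambled and 93.1 ± 0.345% in TAK1 shRNA libraries.

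Of 28 genes in the list of Hippo kinases and scaffolds upstream of YAP1 and TAZ, all tested, 8 were lower, 7 higher and 13 not called. Over all tested genes 11.3% were lower and 11.8% higher. The list had a median log2 fold change of 0.04 beside 0.02 over all tested genes. AMOT, a junction scaffold that binds YAP1, fell from 48.7 ± 1.12 to 29.1 ± 1.21 CPM (log2 fold change -0.74, adjusted p = 2.05e-09). LATS2, a kinase that phosphorylates YAP1 and TAZ, fell from 26.0 to 16.1 CPM (log2 fold change -0.69, adjusted p = 3.7e-07). NF2, the upstream scaffold merlin, rose from 66.6 to 99.0 CPM (log2 fold change 0.57, adjusted p = 1.13e-08). MAP4K1, a kinase that can act in parallel to the core kinases, had the largest fold change upward (0.80, adjusted p = 0.0306) at only 1.01 and 1.76 CPM. The MAP4K1 call was lost without scrambled replicate 1 or 3, or without TAK1 shRNA replicate 2 or 3, with adjusted p from 0.0846 to 0.123. Among the core kinases and their adaptors, LATS2 and MOB1B (log2 fold change -0.52, adjusted p = 1.24e-06) were lower. STK3, STK4, SAV1, MOB1A and LATS1 did not pass the test, with log2 fold changes of 0.04, -0.10, 0.03, 0.05 and -0.03.

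Of 13 genes for cytoplasmic retention and degradation of YAP1 and TAZ, 12 were tested. Lower were YWHAH, YWHAZ and BTRC, 3 of the 12, beside 11.3% of all tested genes. The list's median log2 fold change was -0.07, beside 0.02 over all tested genes. YWHAH and YWHAZ encode 14-3-3 proteins. The other tested 14-3-3 genes, YWHAE, YWHAG, YWHAQ and YWHAB, were not called (log2 fold changes -0.07, -0.06, -0.05 and -0.18). Their scrambled levels, from 361 to 846 CPM, were above that of YWHAH. YWHAH fell from 111 to 77.6 CPM (log2 fold change -0.52, adjusted p = 1.47e-08) and YWHAZ from 696 to 567 CPM (log2 fold change -0.29, adjusted p = 5.02e-06). With library size alone as the scale, YWHAZ was at -0.25, just under the fold threshold. BTRC, a substrate adaptor of the ubiquitin ligase that acts on YAP1 and TAZ, fell from 65.6 to 54.3 CPM (log2 fold change -0.27, adjusted p = 0.00063). FBXW11, also on this list, was not called (log2 fold change -0.10, adjusted p = 0.111).

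Among 24 genes known as targets of YAP1 and TAZ, 23 were tested, and 6 were lower and 4 higher, beside 11.3% and 11.8% of all tested genes. The median log2 fold change was -0.10, beside 0.02 over all tested genes. The matricellular genes CTGF (also named CCN2) and CYR61, commonly used as readouts of YAP1, were among the lower. CTGF fell from 41.3 ± 1.14 to 23.9 ± 1.53 CPM (log2 fold change -0.79, adjusted p = 2.93e-09) and CYR61 from 55.6 to 37.9 CPM (log2 fold change -0.55, adjusted p = 5.82e-07). GADD45A, a growth arrest gene, fell from 56.8 to 32.5 CPM (log2 fold change -0.80, adjusted p = 6.46e-10). CRIM1, NT5E and LATS2 were also lower, at -0.73, -0.75 and -0.69. LATS2 also stands in the Hippo list above, as do AMOTL2 and PTPN14.

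Higher among the targets were ARHGEF17, IGFBP3, FJX1 and CCDC80. ARHGEF17 rose from 65.2 to 88.3 CPM (log2 fold change 0.44, adjusted p = 1.17e-06). IGFBP3, an IGF-binding protein, rose from 33.0 to 42.1 CPM (log2 fold change 0.35, adjusted p = 0.00146). ANKRD1, another common readout, was at 1.77 and 1.24 CPM (log2 fold change -0.51 ± 0.272) and did not pass the test (adjusted p = 0.156). AXL, a receptor kinase target, was at 80.7 and 73.3 CPM (adjusted p = 0.0674). The list was gathered from general knowledge of these genes, and its change cannot be assigned to YAP1 or WWTR1 from these libraries.

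The start window of CTGF is shown as the counterpart of the YAP1 window, because it holds the same letters 3 times, at positions -169, -104 and -95 relative to the start. It is from RefSeq (GRCh38.p14, chr6:131951323-131951622, minus strand), with the M-CAT core in capitals.
CCN2: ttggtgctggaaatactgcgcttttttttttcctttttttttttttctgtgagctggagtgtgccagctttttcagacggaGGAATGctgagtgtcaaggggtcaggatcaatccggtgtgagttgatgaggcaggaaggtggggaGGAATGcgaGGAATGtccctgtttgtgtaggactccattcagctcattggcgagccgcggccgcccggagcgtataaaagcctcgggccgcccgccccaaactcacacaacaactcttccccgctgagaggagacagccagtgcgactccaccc
The core was present in the windows of 10 of the 17 target genes with a window (58.8%), beside 15.2% of the 10827 tested genes with one. Genes are known as targets of YAP1 and TAZ in part because TEAD binds near them, so the share is a description and no result. In the Hippo list it was present for 4 of 25 genes (16%), and in the retention and degradation list for 1 of 10.

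Of 10 muscle genes known to be driven by TEAD through M-CAT elements, 7 were tested, and the median log2 fold change was 0.12, beside 0.02 over all tested genes. ACTC1, the cardiac actin gene expressed in immature muscle, was the 1 of 7 called higher (11.8% of all tested genes), rising from 658 ± 8.65 to 866 ± 36.1 CPM (log2 fold change 0.40, adjusted p = 5.38e-08). TNNT2, the troponin gene in which the M-CAT element was described, was at 53.1 and 62.4 CPM (log2 fold change 0.23, adjusted p = 0.0162), under the fold threshold. Without scrambled replicate 3, TAK1 shRNA replicate 1 or TAK1 shRNA replicate 3, the number called was 2. CKM, muscle creatine kinase, was at 70.0 and 76.3 CPM (adjusted p = 0.0734). ACTA1, skeletal alpha-actin, pointed down from a low level, at 1.62 and 1.17 CPM (log2 fold change -0.47, adjusted p = 0.191). CHRND was nearly level at 296 and 301 CPM (log2 fold change 0.03, adjusted p = 0.737). MYH7 and TNNC1 did not pass the test either, with log2 fold changes of 0.29 and 0.11. The core was present in the windows of 6 of 8 of these genes (75%), which is how such genes were defined and no result.

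**Figure D4:**
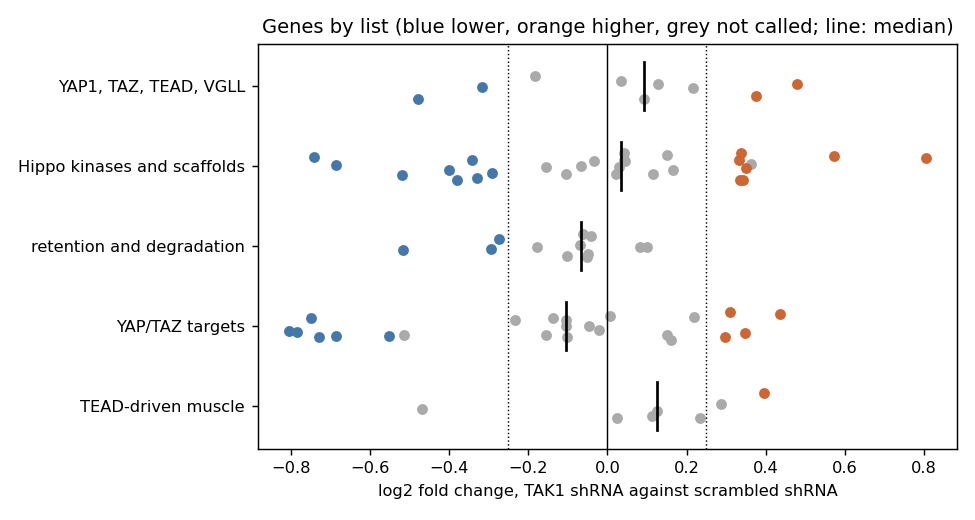
Log2 fold change of each tested gene (TAK1 shRNA against scrambled shRNA) for the 9 genes and 4 pathway lists. Blue points were called lower, orange higher and grey not called, black lines are medians and dotted lines mark 0.25. The Hippo list has 8 blue and 7 orange points, and the target list 6 and 4.

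The genes whose levels ran most like those of the coactivators were found by Pearson's r of log2 CPM over the 6 libraries, among 9710 genes of at least 10 CPM. For YAP1 these were LMNB1, a nuclear lamin (r = 0.9997), CNIH3 (r = 0.9995) and MBNL3, a splicing regulator (r = 0.9991). For WWTR1 they were NDC1, a nuclear pore protein, CAMK2D, a calcium-dependent kinase, and MSN, a membrane-to-actin linker, each with r = 0.9988. All of them had lower means in the TAK1 shRNA libraries, and all but NDC1, which was under the fold threshold, were called lower. Log2 fold changes were -0.33 for LMNB1, -0.76 for CNIH3 and -0.36 for MBNL3. They were -0.24 for NDC1, -0.36 for CAMK2D and -0.62 for MSN. The 6 points form 2 groups, so r mostly reflects the difference between the groups and is given as a description.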

How the data were processed

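RNA of 3 scrambled shRNA and 3 TAK1 shRNA samples of RD cells was sequenced by the authors from poly(A)-enriched libraries. The deposited values are raw counts of reads per gene, without normalization. The submitters' processing notes name CASAVA, STAR and GRCh38, and the counter, the annotation release and strand use are not given in the sources used here. Groups were taken from the labels. Counts were fitted with edgeR 4.0.16 in R 4.3.3 (filterByExpr, trimmed mean of M-values, quasi-likelihood test), with p-values adjusted by Benjamini-Hochberg over the 15935 tested genes and the study's thresholds of 0.05 for adjusted p and 0.25 for log2 fold change. The fit was tested on simulated data (counts drawn from the means of these libraries). The common biological coefficient of variation was 5.67%. DESeq2 1.42.0, limma 3.58.1 (voom), other normalizations, filters and fold thresholds, a replicate block and leaving out each library were alternatives. Positions, exon overlaps and lengths came from GENCODE 44 (lengths for 37051 genes, at least 98.9% of counts) and start windows from RefSeq (GRCh38.p14). TPM values were not scaled by the trimmed mean. Ratios were compared with the exact permutation test of SciPy 1.17.1 in Python 3.11.15.

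Named genes were the 9 genes, the targeted gene and, from each list, the 2 called genes with the largest change in each direction. Other list genes in the text were chosen after their values were seen. The genes and lists were chosen with earlier results of these data known. Replicates differed by more than sampling noise (chi-square per degree of freedom 2.88 to 8.60). Same-numbered libraries of the 2 groups deviated together, with r of 0.37, 0.16 and 0.13 over 9711 genes. Scrambled replicate 3 correlated more with TAK1 shRNA replicate 2 (r = 0.27), so whether the numbers pair the samples is uncertain. The main fit and the exact permutation tests did not pair the samples. Pairing by number was used only in the alternative fit with a replicate block.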

Additional observations from a re-analysis of the deposited data

How the results depend on the processing

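The calls of YAP1, WWTR1, VGLL2 and VGLL3 kept their direction and stayed past both thresholds under all 14 alternative fits. Pairing changed little: with the replicate block 2 of the 9 genes were lower and 2 higher, and 1848 genes were lower and 1942 higher over all tested genes, and apart from TEAD4 by adjusted p alone no call among the 9 genes changed. A fold threshold of 0.5 left 0 of the 9 genes lower and 0 higher (WWTR1 at -0.48 and VGLL3 at 0.48 came closest), with 680 lower and 735 higher over all tested genes by edgeR. At that threshold the Hippo list had 3 lower and 2 higher, and the retention and degradation list 1 lower. The target list kept its 6 lower but had 0 higher, and the TEAD-driven muscle list had 0 higher. With no fold threshold 2734 genes were lower and the TEAD-driven muscle list had 2 higher. That list also had 2 higher with upper-quartile normalization and with library size alone, and 1 to 2 when a library was left out. Library size alone gave 1404 lower and 2376 higher, so that 62.9% of calls were upward instead of 51%, moved the median log2 fold change of all genes from 0.02 to 0.07, left 1 lower gene in the retention and degradation list and brought VGLL4 to 0.26, past the threshold. When a library was left out, TEAD3 ran from -0.028 (without TAK1 shRNA replicate 1) to 0.0634 (without TAK1 shRNA replicate 2), and library size alone gave 0.0834. Leaving out a library gave 1675 to 1931 lower and 1582 to 1810 higher genes over all tested genes, 5 to 8 higher in the Hippo list, 2 to 3 lower in the retention and degradation list and 3 to 5 higher in the target list. The longest-transcript length gave scrambled levels of 92.9 TPM for YAP1, 262 for WWTR1, 52.4 for TEAD1, 218 for TEAD2, 49.6 for TEAD3, 140 for TEAD4, 478 for VGLL2, 20.7 for VGLL3 and 36.8 for VGLL4, with sums of 460 for the TEAD genes, 355 for the coactivators and 536 for the VGLL genes. For these shifts, beyond what each setting changes by its construction, the cause was not tested. With 3 libraries a group the exact test of a ratio cannot go below 0.1.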

Other observations

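VGLL1, the fourth VGLL gene, had 0 counts in all 6 libraries, which allows a level of up to 0.087 to 0.104 CPM per library by counting error alone. WWTR1-AS1, the antisense gene of WWTR1, had 6, 7 and 26 counts in scrambled and 8, 11 and 32 counts in TAK1 shRNA libraries. In both groups replicate 3 held the highest count of WWTR1-AS1. CD37, whose exons overlap those of TEAD2, had a log2 fold change of 0.33 (edgeR, adjusted p = 0.00278), from 23.0 to 28.9 CPM. Of the 4 epithelial markers, KRT18 was the one tested, and it fell from 56.1 ± 3.61 to 26.4 ± 1.10 CPM (log2 fold change -1.09, edgeR adjusted p = 5.2e-12), with the epithelial cadherin gene CDH1 at 0.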
